A study of Rattus norvegicus with 36 samples.

Results

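The genes described here are 37 interferon-stimulated and antigen processing genes, listed by name, with earlier results of these data known when the list was made. Of the 37 genes, 34 were matched by accession to at least 1 of the 30367 probes of the array, 17998 of which could be named and stand for 15154 genes. Ddx58, Herc6 and Xaf1 were not matched and have no values here. Expression was measured in the thyroid of normal adult male Sprague Dawley rats, 24 h after an intravenous injection of saline with 131I, a radioactive iodine isotope that is taken up by the thyroid. The activity was 9, 88 or 170 kBq in the lowest, 260, 340 or 760 kBq in the middle and 1300 or 4700 kBq in the highest groups, and the control rats were mock-treated with 0 kBq. Each of the 9 groups held 4 rats, and each rat had 1 Agilent 1-colour array. The rats were injected in order of rising activity and the controls were treated last, so the order of injection cannot be told apart from the activity. The rats were kept 4 to a cage, and the link between cages and groups is not given in the sources used here.

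Interferons are secreted when a cell detects foreign or misplaced nucleic acid. Type I interferons act through the receptor kinases Jak1 and Tyk2 on a complex with Stat2 and Irf9, which binds the interferon-stimulated response element (ISRE) in promoters. Type II interferon, made mainly by T cells and natural killer cells, acts at the gamma-activated site (GAS). The induced genes include antiviral effectors, the RNA sensors and transcription factors that start the response, chemokines that attract T cells, and the immunoproteasome and peptide transporter that supply peptides to MHC class I. Interferon production is a known response of irradiated cells to damaged DNA. The study compared each injected activity with the mock-treated rats, and the question for these genes was whether such a response could be seen in the thyroid after 24 h.

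A log2 level below is the log2 of the scanner's processed signal minus the 75th percentile of the same array, so that 0 marks that percentile. A log2 ratio is the difference of 2 group means of such levels. Levels of different genes come from different probes and were not compared. Of the 34 genes, 28 were well above background on all 36 arrays. Ifit1 was well above background on 2 arrays, Cxcl11 on 18, Oasl on 20, Dtx3l on 25, Cxcl10 on 31 and Irf8 on 34. Between 62.6% and 91.0% of all probes were well above background on an array, and the 75th percentile lay between 1564 and 4288.

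The arrays differed in tissue markers, unevenly between the groups. The mean log2 level of 8 follicular cell markers lay between 2.46 and 4.05 on 18 arrays and between -4.95 and 0.28 on the other 18. The arrays with higher follicular means were 3 of 4 in the control and 4700 kBq groups, 1 of 4 in the 9 and 340 kBq groups, and 2 of 4 in the remaining groups. On 3 arrays (control rat 2, 9 kBq rat 2 and 88 kBq rat 1) the mean of 13 lymphocyte markers was between 0.73 and 1.6, against -6.56 to -4.47 on the other 33. Squamous epithelium markers had a mean above 0 on 11 of the arrays with lower and on 2 of those with higher follicular means. In bulk tissue, fewer cells of a type and less RNA per cell cannot be told apart. The part of these marker differences in the results below was not tested beyond the fits that are given beside them.

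The promoter letters are shown first because they tell which members carry the letters of the classical interferon elements close to the start. In RefSeq sequence of the rat build GRCr8, 30 of the 37 genes had a promoter window of 300 bases, from 250 before to 50 after the start. The ISRE was searched as GAAANNGAAA and the GAS as TTCNNNGAA, on both strands. The ISRE letters were in 19 of the 30 windows (63.3%), against 3.92% of 33469 windows of all genes. The GAS letters were in 9 of the 30 windows (30%), against 8.87% of all. Such a match is a description of the sequence and no measurement of binding. Bases outside the window and other spellings were not searched, so a missing match does not show that a gene lacks the element.

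The windows of 8 genes that the results below turn on follow, 5′ to 3′, with ISRE and GAS matches in capitals. An ISRE on the opposite strand reads TTTCNNTTTC. The sensor Ifih1, on chr3:67683919-67684218 (minus strand), had an ISRE 59 bases before the start. The factor Irf7, on chr1:205799974-205800273 (minus strand), had an ISRE 69 bases before the start. The effector Oas1a, on chr12:41330216-41330515 (plus strand), had overlapping ISRE matches 41 and 35 bases and a GAS 199 bases before the start. The effector Oasl2, on chr12:47383136-47383435 (minus strand), had an ISRE 151 bases before the start. The chemokine Cxcl9, on chr14:16006916-16007215 (plus strand), had no ISRE letters and a GAS 32 bases after the start. The neighbouring chemokine Cxcl10, on chr14:15988816-15989115 (plus strand), had an ISRE 243 bases before the start and no GAS letters. The immunoproteasome gene Psmb8, on chr20:4656982-4657281 (minus strand), had an ISRE 4 bases and a GAS 245 bases before the start. Its partner Psmb9, on chr20:4668750-4669049 (plus strand), had neither, and its window shared 44 bases with that of the oppositely oriented Tap1.
Ifih1: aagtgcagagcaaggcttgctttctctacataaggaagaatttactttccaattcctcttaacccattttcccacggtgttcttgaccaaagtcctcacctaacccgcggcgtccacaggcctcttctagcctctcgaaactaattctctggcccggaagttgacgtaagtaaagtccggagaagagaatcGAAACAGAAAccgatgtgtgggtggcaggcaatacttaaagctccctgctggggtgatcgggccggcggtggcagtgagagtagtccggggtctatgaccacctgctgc
Irf7: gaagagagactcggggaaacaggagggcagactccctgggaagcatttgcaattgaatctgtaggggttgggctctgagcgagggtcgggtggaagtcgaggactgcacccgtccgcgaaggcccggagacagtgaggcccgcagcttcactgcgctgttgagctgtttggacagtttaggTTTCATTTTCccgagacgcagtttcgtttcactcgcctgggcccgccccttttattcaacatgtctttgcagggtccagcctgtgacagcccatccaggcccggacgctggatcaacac
Oas1a: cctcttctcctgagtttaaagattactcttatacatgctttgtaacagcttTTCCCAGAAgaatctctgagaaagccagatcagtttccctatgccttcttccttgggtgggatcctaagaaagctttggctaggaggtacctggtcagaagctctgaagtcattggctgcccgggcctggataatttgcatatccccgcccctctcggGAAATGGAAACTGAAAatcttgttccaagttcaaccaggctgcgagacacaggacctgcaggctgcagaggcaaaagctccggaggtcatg
Oasl2: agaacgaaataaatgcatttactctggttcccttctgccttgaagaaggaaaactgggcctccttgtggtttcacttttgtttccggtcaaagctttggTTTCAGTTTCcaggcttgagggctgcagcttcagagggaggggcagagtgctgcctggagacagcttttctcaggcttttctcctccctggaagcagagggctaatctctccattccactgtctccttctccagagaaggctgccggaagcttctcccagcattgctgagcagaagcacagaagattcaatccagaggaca
Cxcl9: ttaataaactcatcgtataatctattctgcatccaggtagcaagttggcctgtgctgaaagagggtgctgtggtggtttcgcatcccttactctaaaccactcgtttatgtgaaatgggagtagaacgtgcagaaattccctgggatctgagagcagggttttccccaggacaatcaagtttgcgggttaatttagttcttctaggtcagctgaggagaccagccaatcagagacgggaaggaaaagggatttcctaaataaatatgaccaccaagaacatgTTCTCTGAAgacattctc
Cxcl10: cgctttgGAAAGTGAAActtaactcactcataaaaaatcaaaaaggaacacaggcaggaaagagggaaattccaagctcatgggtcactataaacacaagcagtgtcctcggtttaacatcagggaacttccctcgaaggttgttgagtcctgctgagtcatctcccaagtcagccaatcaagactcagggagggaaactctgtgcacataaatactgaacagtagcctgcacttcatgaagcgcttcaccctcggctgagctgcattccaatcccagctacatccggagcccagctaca
Psmb8: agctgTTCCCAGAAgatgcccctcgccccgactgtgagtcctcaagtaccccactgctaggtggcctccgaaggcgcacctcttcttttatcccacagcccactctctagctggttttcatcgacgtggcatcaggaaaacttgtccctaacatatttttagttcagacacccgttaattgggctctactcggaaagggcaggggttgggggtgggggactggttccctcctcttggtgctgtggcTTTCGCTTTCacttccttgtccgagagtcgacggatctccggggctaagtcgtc
Psmb9: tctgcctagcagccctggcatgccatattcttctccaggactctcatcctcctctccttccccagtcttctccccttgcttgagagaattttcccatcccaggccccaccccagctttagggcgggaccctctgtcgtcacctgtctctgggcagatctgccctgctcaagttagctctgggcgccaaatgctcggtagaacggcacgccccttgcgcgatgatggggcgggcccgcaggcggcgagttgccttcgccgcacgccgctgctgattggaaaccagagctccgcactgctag

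No member was called in the thyroid 24 h after 131I at the limits of the study, which ask for a fold change of 1.5 or more and an adjusted p-value below 0.01. The count was 0 of 34 members in each of the 8 irradiated groups, where limma called 0% of all 30367 probes, so the absence of calls is not particular to these genes. At an unadjusted p-value under 0.05, 3 of the 272 ratios of a member in a group passed, and all were higher values of Ifih1, at 88, 170 and 4700 kBq. At that limit 2.99%, 2.16% and 1.28% of all probes were higher in these 3 groups, so that 1 of 34 members per group is near the background. In the groups without a member at that limit, the share of all probes that were higher was 2.77% at 9 kBq, 0.787% at 260 kBq, 13.2% at 340 kBq, 1.5% at 760 kBq and 3.84% at 1300 kBq. No member was lower at that limit in any group, where the share of all probes from 9 to 4700 kBq was 0.454%, 0.372%, 0.201%, 0.336%, 0.438%, 0.148%, 0.339% and 0.372%. In the comparison of all irradiated groups with the controls, again only Ifih1 passed the unadjusted limit, where 2.98% of all probes were higher and 0.286% lower. An F-test over the 9 groups called 0 members (background 0.0132%), and 0 members had an unadjusted F-test p-value under 0.05 (background 2.69%). A fit with estimated array weights differed: it called 8 members at 9 kBq, all lower, among them Isg15 (-1.92), Mx1 (-2.28) and B2m (-1.25), and gave 9 kBq rat 4 the highest weight of all arrays, 4.55. That fit called 7.75% of all probes at 9 kBq, with 2.18% of all probes lower.

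The ratios scattered on both sides of 0. At 4700 kBq 25 of 34 members had a ratio above 0, with a median of 0.14 against 0.09 for all probes. At 170 kBq 27 members lay below 0, with a median of -0.43 against 0.12. At 9 kBq 28 members lay below 0, with a median of -0.32 against 0.07. Set against the median probe of each comparison, 22 members lay above it at 4700 kBq, and between 6 and 15 did so in the other 7 groups. The ratios ran from -1.58 (Tap2 at 340 kBq) to 1.02 (Oasl at 340 kBq). At 340 kBq the median of all probes was 0.31, the highest of the 8 groups, and Oasl lay 0.71 above it. That group held rat 4, the array with the largest share of probes well above background, 90.95%. The standard error of a ratio had a median of 0.60, and the 95% confidence interval reached a median of 1.23 to each side. A ratio smaller than this could, for a typical member, not be told from 0 before adjustment with 4 rats in a group. For a call at the limits of the study, a ratio would have to be larger still.

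**Figure D1:**
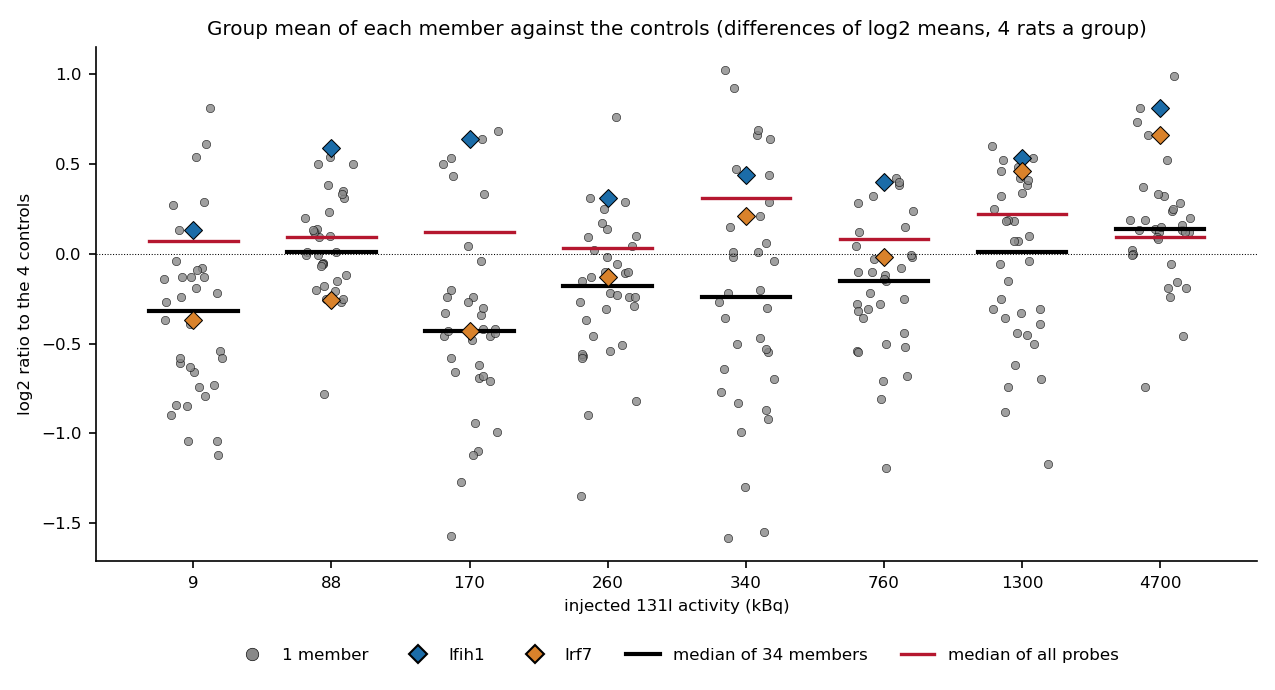
Each point is the log2 ratio of 1 of 34 genes between the 4 rats of a group and the 4 controls (vertical axis) at the injected 131I activity in kBq (horizontal axis), with the median of the genes in black and that of all probes in red. Ifih1 (blue diamonds) lay above 0 in each group and reached 0.81 at 4700 kBq, Irf7 (orange diamonds) reached 0.66 there, and the median of the genes was lowest at 170 kBq (-0.43).

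The cytosolic RNA sensors were represented by Ifih1, which encodes the long double-stranded RNA sensor MDA5, and Dhx58, which encodes its relative LGP2. Ifih1 had log2 levels of -4.21, -5.0, -4.74 and -4.67 in the control rats and -4.18, -3.48, -3.47 and -4.24 in the rats given 4700 kBq. Of these 4 irradiated rats, 3 lay above all controls, and the remaining one was within the control range. The group means were -4.65 ± 0.33 in the controls and -3.84 ± 0.43 at 4700 kBq (SD, n = 4), a log2 ratio of 0.81 (SE 0.28, 95% confidence interval 0.25 to 1.38) or 1.75-fold. Its unadjusted p-value was 0.00623 and its adjusted p-value 1 in limma, and the exact permutation test gave p = 0.0571. The gene was therefore not called at the limits of the study at 4700 kBq, where limma called 0% of all probes. With array weights the ratio was 0.40 and the unadjusted p-value of 0.0682 missed 0.05, and with normexp background correction the ratio was 0.52.

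Ifih1 had a mean above the control mean in each of the irradiated groups, from -4.52 at 9 kBq to -3.84 at 4700 kBq, without following the order of the activities. The ratio was 0.59 (SE 0.28) at 88 kBq, with p = 0.0396 in limma and p = 0.0571 in the exact permutation test. It was 0.64 (SE 0.28) at 170 kBq, with p = 0.0286 in limma and p = 0.0857 in the exact permutation test. Over all irradiated groups the ratio was 0.48 (SE 0.21, 95% confidence interval 0.06 to 0.90) or 1.39-fold, with an unadjusted p-value of 0.0271 and an adjusted p-value of 0.968 in limma. It was larger than its error in that contrast before adjustment only. Without control rat 2, which had the lowest of the control values and is 1 of the 3 arrays with high lymphocyte markers, the ratio over all irradiated groups was 0.37 (n = 35 rats, p = 0.13 in limma), and with array weights it was 0.21 (n = 36, p = 0.234). Without control rat 3 or 4 the unadjusted p-value was 0.0684 or 0.0569. Within the array slides that held controls, the irradiated minus control difference was 0.87, 0.67 and -0.21 on slides 1, 2 and 5. Slides 2 and 5 held 1 control each, rat 2 with the lowest and rat 1 with the highest control value, so these differences rest on single controls.

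**Figure D2:**
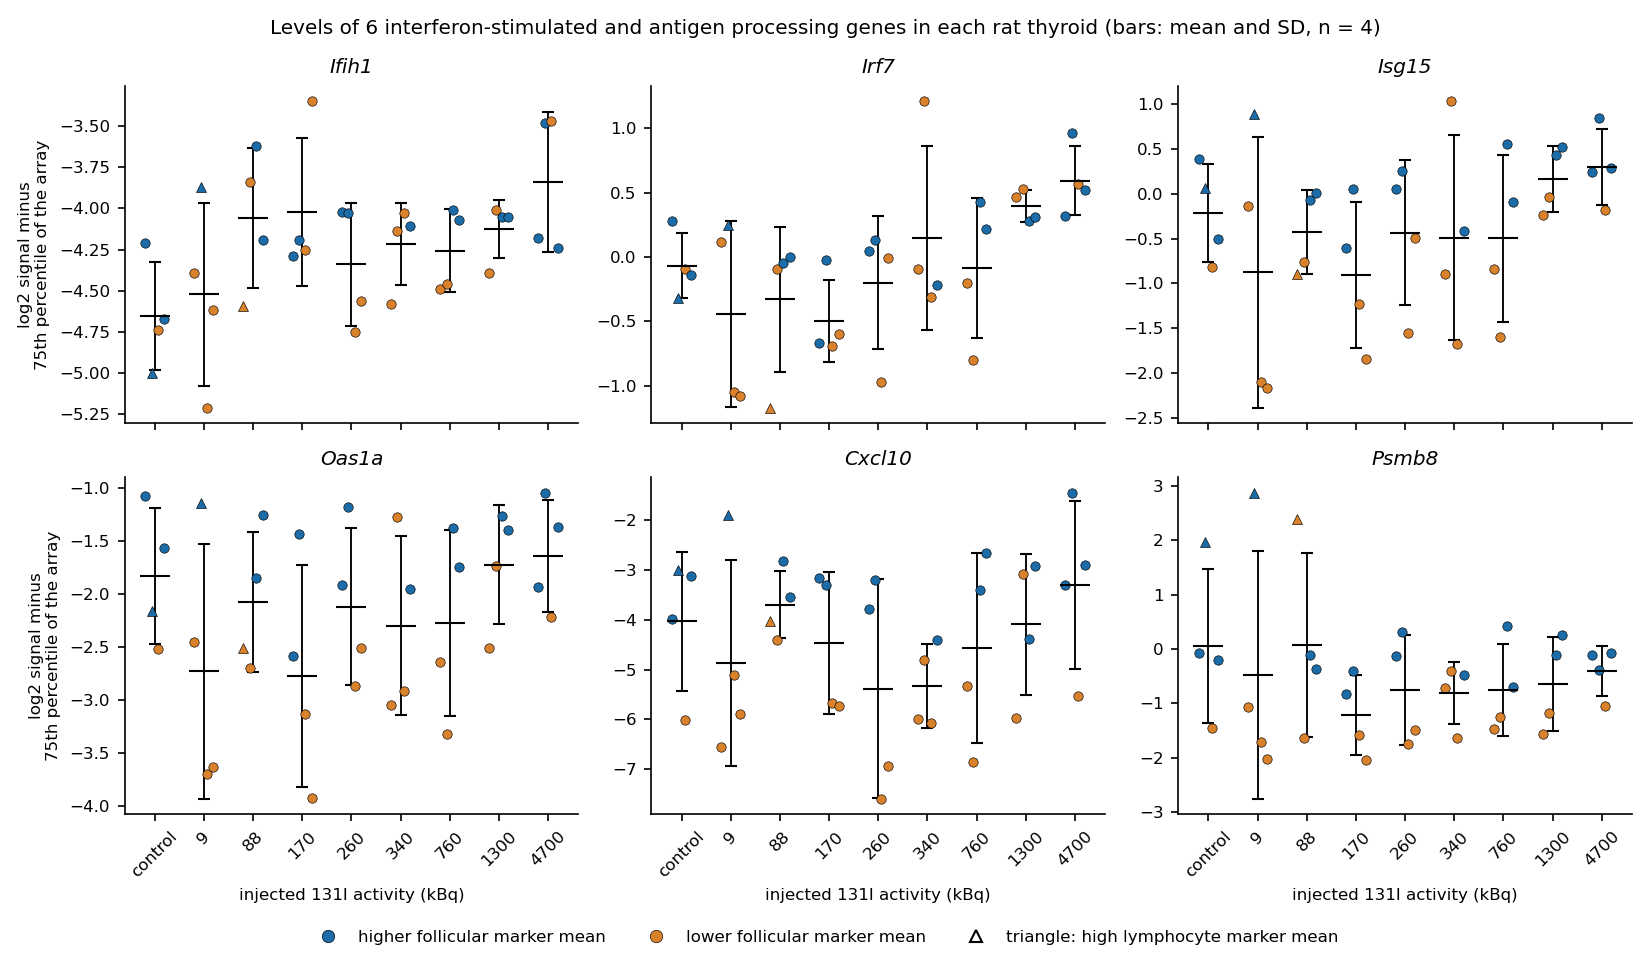
Log2 level (log2 signal minus the 75th percentile of the array, vertical axis) of 6 genes in each of the 36 rats by group (injected activity in kBq, horizontal axis), with mean and SD of the 4 rats, follicular marker mean by colour and high lymphocyte markers as triangles. Irf7 at 4700 kBq lies above its 4 control points, the 2 lowest Cxcl10 values are rats given 260 kBq, and the 3 highest Psmb8 values are the triangles.

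Dhx58 varied far more between rats of a group than Ifih1, with a within-group SD of 1.47 against 0.38. Its control levels were -2.29, -3.09, -5.12 and -2.12, and those at 340 kBq were -6.50, -4.08, -5.34 and -2.91. The groups overlapped, and the ratio of -1.55 (SE 1.01) had p = 0.133 in limma and p = 0.2 in the exact permutation test. Each of the Dhx58 levels on the 18 arrays with higher follicular means, -3.40 to -1.63, lay above each of those on the other 18, -6.50 to -4.04.

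Among the transcription factors, Irf7, the master factor of late type I interferon production, had its highest means at the highest activities. Its levels were 0.28, -0.32, -0.09 and -0.14 in the controls, 0.47, 0.53, 0.28 and 0.31 at 1300 kBq, and 0.32, 0.96, 0.57 and 0.52 at 4700 kBq. At 4700 kBq the 4 rats lay above all 4 controls, the only member and group for which this held, in either direction, among the 8 comparisons. Of all probes, 0.715% had 4 rats above all controls at 4700 kBq, and 0.553% had 4 rats below. In the other groups, where the members' count was 0, the share of all probes with 4 rats above was 1.48%, 1.67%, 1%, 0.823%, 4.03%, 1.38% and 1.07% from 9 to 1300 kBq, and with 4 rats below it was 0.247%, 0.194%, 0.244%, 0.244%, 0.303%, 0.247% and 0.188%. The ratio was 0.66 (SE 0.35, 95% confidence interval -0.05 to 1.37) or 1.58-fold, with p = 0.0686 in limma and p = 0.0286 in the exact permutation test. The latter is the smallest possible with 4 rats against 4, and the adjusted p-value in limma was 1. Irf7 was therefore not called at the limits of the study at 4700 kBq, where limma called 0% of all probes.

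At the lower activities Irf7 means were below the control mean of -0.07 ± 0.25 in most groups, with -0.44 at 9 kBq, -0.33 at 88 kBq, -0.50 at 170 kBq and -0.20 at 260 kBq. The mean was 0.15 at 340 kBq, where rat 2 had 1.21 and the other rats -0.31 to -0.09, and -0.09 at 760 kBq. Averaged over all irradiated groups the ratio to the controls was 0.02 (SE 0.26). The Irf7 means thus lay below the control mean at most of the lower activities and above it at 1300 and 4700 kBq.

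This was described by the slope on the log2 of the activity over the 32 irradiated rats, where 0 members passed the adjusted limit of 0.01 (background 0.0132%). At an unadjusted p-value under 0.05, 3 members had a rising slope and 0 a falling one, where 4.53% of all probes were rising and 6.33% falling. The slope of Irf7 was 0.123 per doubling of the activity (SE 0.035), a difference of 1.11 between 9 and 4700 kBq, with an unadjusted p-value of 0.00136 and an adjusted p-value of 0.183 in limma. Isg15 had a slope of 0.13 (SE 0.057, n = 32, p = 0.0281, adjusted p = 0.406 in limma) and Oas1a one of 0.117 (SE 0.054, n = 32, p = 0.0375, adjusted p = 0.447). The signs of the slopes were above 0 for 27 members and below 0 for Gbp5, Bst2, Ifit2, Psmb8, Tap2, Irf8 and Gbp2. The median slope of the members was 0.039 against 0.009 for all probes.

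The slopes were fitted again with the tissue markers and slides taken into account. On the irradiated arrays with higher follicular means alone (n = 15), the slope was 0.081 for Irf7, 0.026 for Isg15 and 0.010 for Oas1a. Of the 9 kBq group this fit held only rat 2, 1 of the 3 arrays with high lymphocyte markers. Its Isg15 level of 0.89 was the highest of the 15, and the slopes on these arrays without it were not taken. With the follicular and lymphocyte means as covariates the slopes of Irf7, Isg15 and Oas1a were 0.114, 0.097 and 0.072. The unadjusted p-values of Isg15 and Oas1a in limma, 0.061 and 0.0888, then missed 0.05. Without the 3 arrays with high lymphocyte markers they were larger, 0.141, 0.185 and 0.165. With the slide as a block they were 0.11, 0.125 and 0.12, and within the slides the slope of Irf7 was 0.058, 0.222, 0.208, -0.12 and 0.15 on slides 1 to 5. For Isg15 it was -0.022, 0.327, 0.244, -0.194 and 0.252, so that both genes had a falling slope on slide 4. Without 9 kBq rat 3 or rat 4, or without 4700 kBq rat 2, the unadjusted p-values of Isg15 and Oas1a rose above 0.05, to between 0.0619 and 0.121. For Oas1a it was also 0.0543 or 0.0524 without 1300 kBq rat 3 or 4, and 0.0645 without 4700 kBq rat 4.

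**Figure D3:**
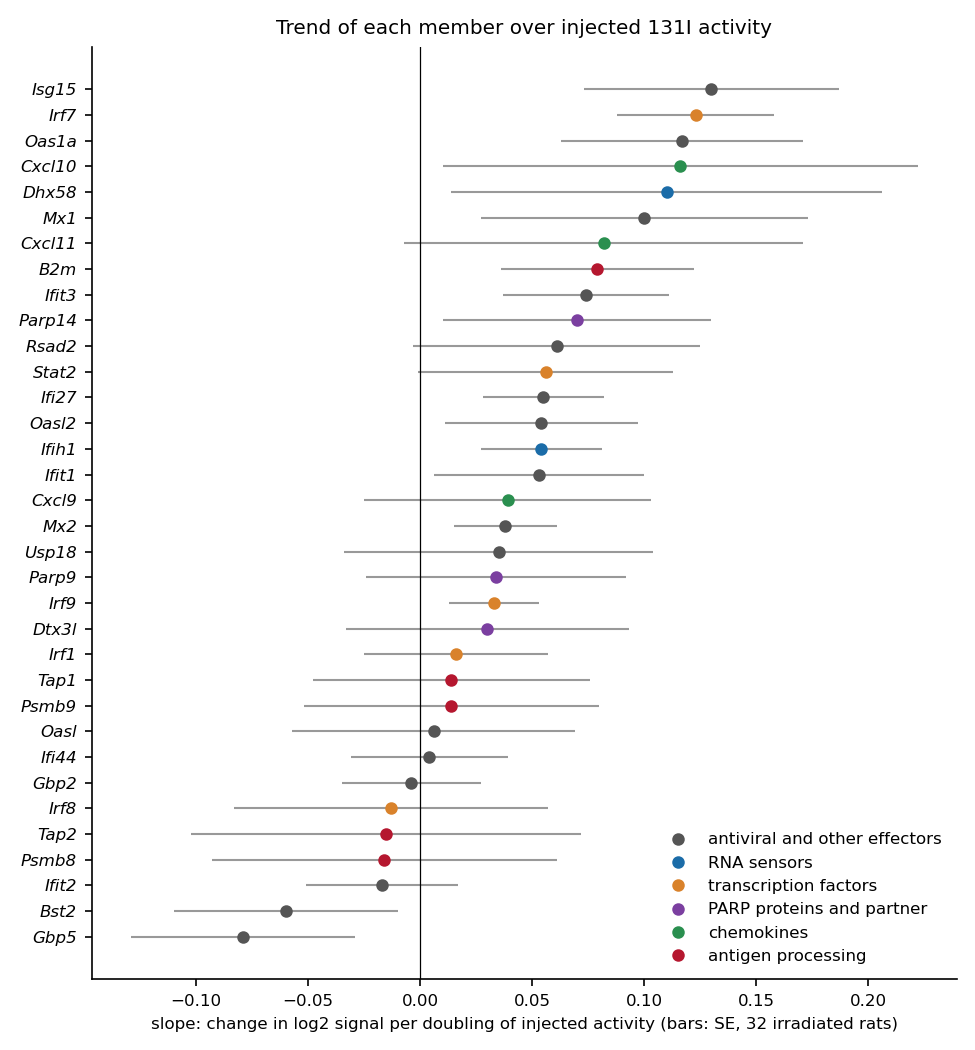
Slope of the log2 level per doubling of the injected activity (horizontal axis) for each of the 34 genes (vertical axis, in order of slope), over 32 irradiated rats, with SE bars and the role of the gene by colour. Isg15 (0.13), Irf7 (0.123) and Oas1a (0.117) have the highest slopes, and Gbp5 (-0.079) the lowest.

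The other factors did not differ from the controls beyond their error in any group, at intervals that for most were wide. Irf9, the DNA-binding part of the type I complex, was the steadiest member, with a within-group SD of 0.26 and a ratio of -0.07 (SE 0.15) over all irradiated groups. The ratio of Irf1, an early factor of the type II response, was -0.19 (SE 0.33). Irf8, a factor of macrophages, dendritic cells and B cells, had its lowest ratio at 1300 kBq, -0.88 (SE 0.72), where the rats had -6.78, -5.52, -3.70 and -3.95. Stat2, the partner of Irf9, lay between 1.92 and 3.26 on the 18 arrays with higher follicular means and between 0.91 and 1.30 on the other 18, while its ratio over all irradiated groups was -0.21 (SE 0.46).

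The 16 antiviral effectors had ratios between -1.04 (Mx1 at 9 kBq) and 1.02 (Oasl at 340 kBq), and 12 had a slope above 0. Isg15, a ubiquitin-like modifier, had levels of 0.39, 0.06, -0.82 and -0.50 in the controls, -0.14, 0.89, -2.10 and -2.16 at 9 kBq, and 0.24, 0.84, -0.18 and 0.29 at 4700 kBq. The 9 kBq group thus held the lowest and the second highest Isg15 value of all 36 rats, and its highest was on an array with high lymphocyte markers. The Isg15 ratio was -0.66 (SE 0.59) at 9 kBq and 0.52 (SE 0.59) at 4700 kBq. The GTPase Mx1, which blocks viral replication, had levels of 1.33, 1.69, -0.84 and 0.95 in the controls and -0.65, 2.10, -1.05 and -1.43 at 9 kBq, a ratio of -1.04 (SE 0.80, exact permutation p = 0.4). Its groups overlapped over nearly the whole range.

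Oas1a, which makes the oligoadenylate that activates RNase L, had a ratio of -0.94 (SE 0.57, exact permutation p = 0.2) at 170 kBq, with levels of -2.59, -1.43, -3.13 and -3.93 against -1.07, -2.16, -2.52 and -1.56 in the controls. The Ifit genes encode proteins that bind viral RNA. Ifit2 had ratios of 0.61 (SE 0.35, exact permutation p = 0.2) at 9 kBq and 0.64 (exact permutation p = 0.0857) at 340 kBq, Ifit3 a ratio of -0.02 (SE 0.28) over all irradiated groups, and neither differed from the controls beyond the spread. Ifit1 was not well above background on any array of the control group, so no fold change is given. Its highest value was -5.84 in 170 kBq rat 2. The restriction factor Bst2 had 1.89, 1.59, 2.76 and 2.46 at 9 kBq against 1.57, 1.0, 1.73 and 1.17 in the controls, a ratio of 0.81 (SE 0.51, p = 0.122 in limma, exact permutation p = 0.0571). At 4700 kBq its ratio was 0.08.

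Rsad2, which encodes viperin, had a ratio of 0.99 (SE 0.68, exact permutation p = 0.457) at 4700 kBq that rested on rat 3, with -2.77, -2.09, 1.29 and -2.50 in the 4 rats. The mitochondrial protein gene Ifi27 had a ratio of 0.42 (SE 0.28, exact permutation p = 0.0571) at 1300 kBq. The guanylate-binding proteins Gbp2 and Gbp5, GTPases of the type II response, had ratios of 0.02 (SE 0.25) and -0.02 (SE 0.43) over all irradiated groups. A second probe of Gbp5 gave 0.34.

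Parp9, Parp14 and Dtx3l act in ADP-ribosylation and ubiquitination, and Parp9 and Dtx3l form a complex. They had ratios between -0.83 (Parp14 at 340 kBq) and 0.31 (Dtx3l at 88 kBq), none beyond the spread, with slopes above 0 for the 3 genes. Parp9 levels were -1.83 to -0.65 on the 18 arrays with higher follicular means and -3.38 to -2.25 on the others, and those of Parp14 were 1.02 to 2.04 and -0.45 to 0.76. The follicular split thus parted both genes without overlap, which the groups did not.

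The chemokines Cxcl9, Cxcl10 and Cxcl11 attract T cells through their shared receptor Cxcr3. Cxcl10 had the largest within-group SD of the members, 1.59, with levels of -3.98, -3.0, -6.01 and -3.13 in the controls and -3.79, -3.21, -7.59 and -6.93 at 260 kBq. The ratio at 260 kBq was -1.35 (SE 1.08, p = 0.221 in limma, exact permutation p = 0.257), and on the 18 arrays with higher follicular means alone it was -0.13. It was -0.62 without 260 kBq rat 3, -0.84 without rat 4 and -2.08 without rat 2, and -0.53 with normexp background correction. Both low rats at 260 kBq had lower follicular means. Cxcl10 was well above background on 2 of 4 arrays at 260 kBq and on 3 of 4 control arrays. The ratio at 260 kBq thus rests in part on values near background. At 4700 kBq the levels were -3.31, -1.45, -5.52 and -2.91 and the ratio 0.73.

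Cxcl9 had levels of -3.43, -2.58, -3.03 and -1.35 at 340 kBq against -3.48, -2.63, -2.39 and -4.65 in the controls, a ratio of 0.69 (SE 0.62). At 88 kBq its ratio was -0.78 (SE 0.62, exact permutation p = 0.257). The groups overlapped in both cases. Cxcl11 was well above background on 18 arrays and on none of the 170 kBq group, and its highest level was -2.93 in 340 kBq rat 4. The medians of the neighbouring Cxcl9 and Cxcl10 differed in opposite directions between the array sets of the tissue split, with overlapping ranges. Without the 3 arrays with high lymphocyte markers, the median on the 16 arrays with higher follicular means minus that on the 17 others was -1.25 for Cxcl9 and 2.64 for Cxcl10. The Cxcl9 range was -4.98 to -1.35 on the former and -4.79 to -2.15 on the latter.

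The antigen processing genes were the immunoproteasome subunits Psmb8 and Psmb9, the peptide transporter Tap1 and Tap2, and B2m, the light chain of MHC class I. Their ratios ran from -1.58 (Tap2 at 340 kBq) to 0.38 (Tap1 at 88 kBq). Psmb8 had levels of -0.08, 1.97, -1.45 and -0.21 in the controls, -1.06, 2.88, -1.71 and -2.03 at 9 kBq, and 2.40, -1.64, -0.11 and -0.37 at 88 kBq. The single high rat in each of these 3 groups was the one with high lymphocyte markers. The lowest ratio of Psmb8 was -1.27 (SE 0.84, exact permutation p = 0.143), at 170 kBq.

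Tap2 had levels of 0.46, 3.54, -1.28 and 0.50 in the controls and -0.96, -1.04, -1.12 and 0.01 at 340 kBq, a ratio of -1.58 (SE 0.96, p = 0.108 in limma, exact permutation p = 0.143). Over all irradiated groups the Tap2 ratio was -1.01 (SE 0.72, n = 36, p = 0.17 in limma), and it was -0.33 without the 3 arrays with high lymphocyte markers and -0.10 without control rat 2 alone. At 340 kBq the ratio was -0.67 without the 3 arrays. Without control rat 2 the ratios of the 8 groups ran from -0.67 at 340 kBq to 1.12 at 88 kBq, against -1.58 to 0.20 with it, and those at 260 and 4700 kBq turned to 0.01 and 0.17. The low Tap2 ratios thus rested in large part on 1 control rat. B2m had 3.26, 3.97, 2.54 and 2.60 at 9 kBq against 3.97, 3.88, 3.28 and 4.17 in the controls, a ratio of -0.73 (SE 0.45, exact permutation p = 0.114). On the 18 arrays with higher follicular means alone the ratio of B2m was -0.04, from 1 rat at 9 kBq. This was rat 2, 1 of the 3 arrays with high lymphocyte markers. With the follicular and lymphocyte means as covariates the B2m ratio was -0.08, and without the 3 arrays it was -1.01 (SE 0.51). Tap1 differed from the controls by -0.17 (SE 0.47) over all irradiated groups.

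Several members were parted by the tissue markers without overlap. The follicular means were uneven between the groups, and each group held only 4 rats, so this split cannot be weighed against the injected activity. Stat2, Dhx58, Parp9 and Parp14, 4 of the 34 members, lay higher on each of the 18 arrays with higher follicular means than on each of the other 18, as did 3.41% of all probes without a missing value. No member lay lower on each of them (background 0.671%). Without the 3 arrays with high lymphocyte markers, Psmb9 (0.66 to 1.82 against -0.84 to 0.62) and Tap2 (-0.45 to 1.15 against -2.30 to -0.64) were added, 6 members in all against 5.2% of probes. The difference of the medians between the array sets was above 0 for 26 members, with the largest values for Dhx58 (2.74), Cxcl10 (2.64), Mx1 (1.94) and Stat2 (1.61). It was below 0 for Cxcl9, Ifit1, Ifit2, Ifit3, Rsad2, Gbp2, Gbp5 and Bst2. These array sets were defined from the data, and no test was made between them.

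**Figure D4:**
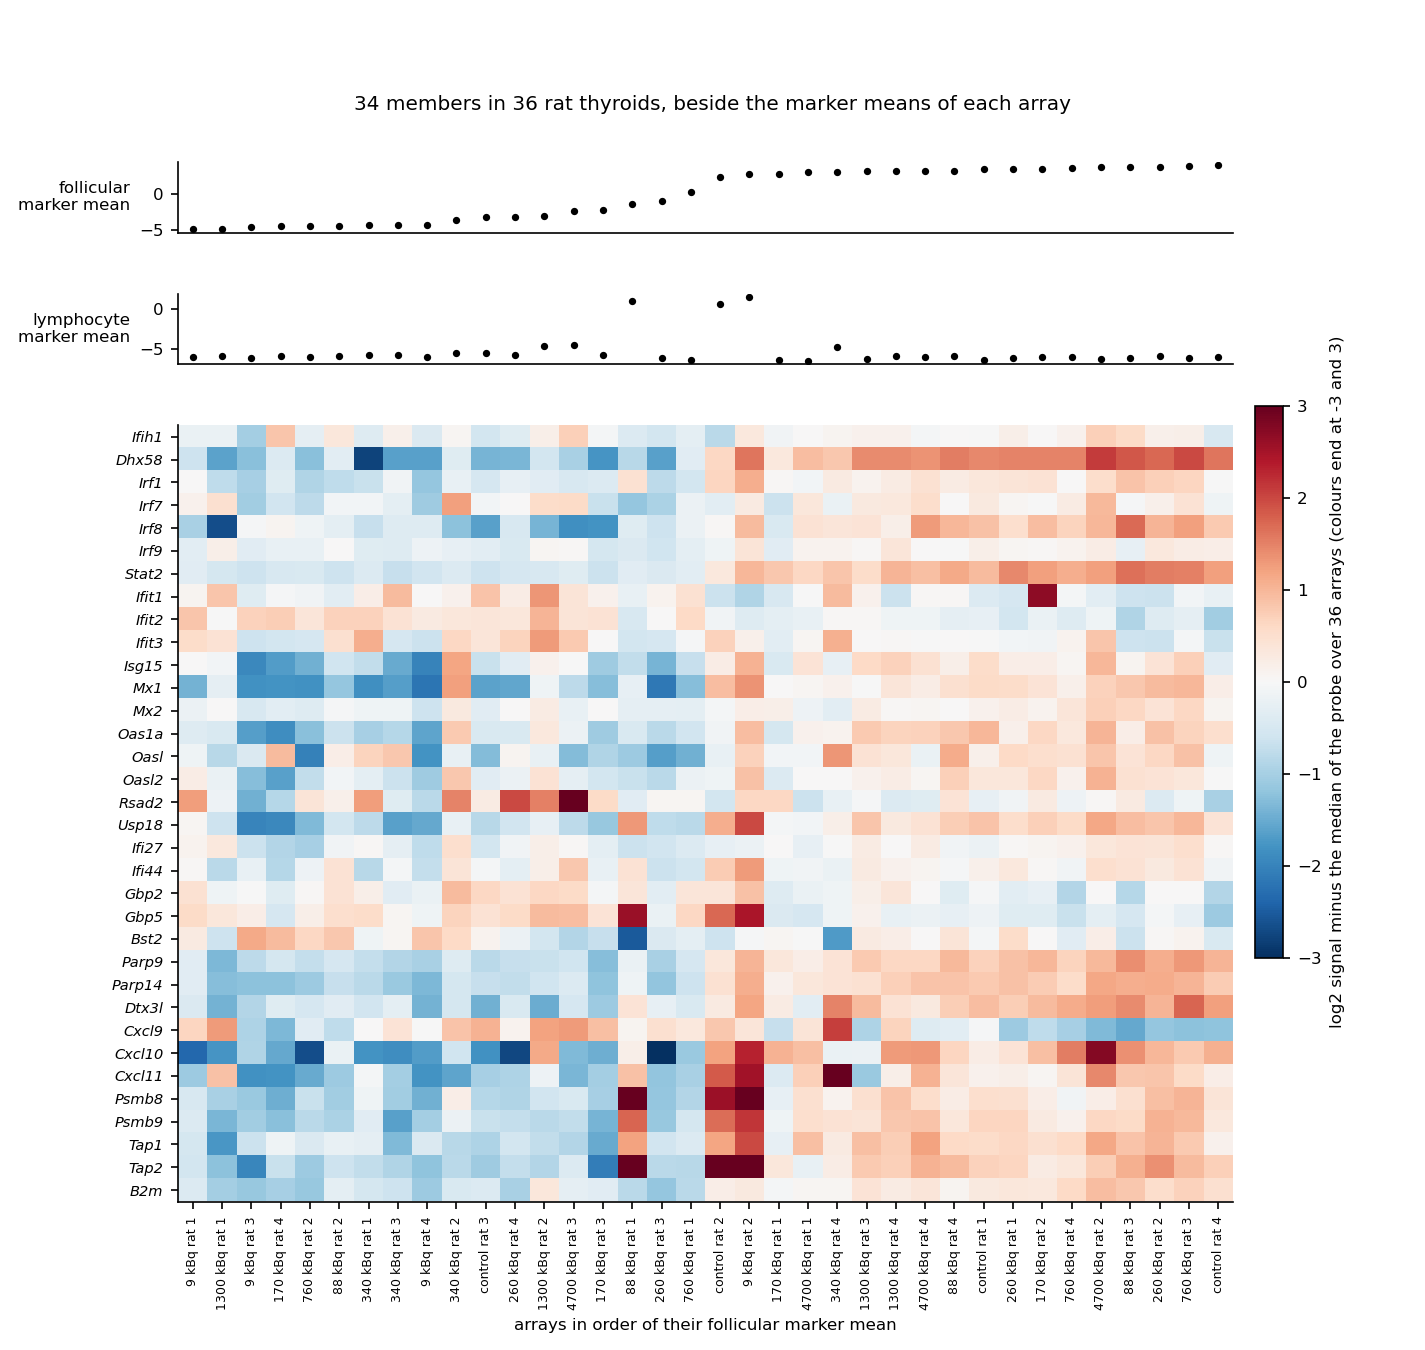
Colours give the log2 level of 34 genes (rows, by role) minus the median of the gene over the 36 arrays (columns, in order of their follicular marker mean), with the follicular and lymphocyte marker means in the top panels. Stat2, Dhx58, Parp9 and Parp14 change from blue to red where the follicular mean steps from 0.28 to 2.46, and Psmb8, Tap2 and Gbp5 are reddest on the 3 arrays with a high lymphocyte mean.

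The 3 arrays with high lymphocyte markers had the highest values of 4 members, Psmb8, Psmb9, Tap2 and Gbp5, each above all other 33 arrays, as 3.61% of all probes were. Psmb8 was 1.97 to 2.88 on them and -2.05 to 0.43 on the others, Tap2 3.09 to 3.54 against at most 1.15, Psmb9 2.47 to 2.94 against at most 1.82, and Gbp5 -1.22 to -0.34 against at most -1.99. The pan-leukocyte gene Ptprc was 1.95 to 2.64 on the 3 arrays, and Rag1, which marks immature lymphocytes, was 2.86 to 3.66. On the other 33 arrays Ptprc, Cd3d, Cd3g and Cd4 were well above background throughout, at lower levels, the other 9 lymphocyte markers were so on 1 (Rag1) to 26 (Cd8b) arrays, and the macrophage and dendritic cell mean lay between -2.98 and -0.69 on all 36 arrays. Isg15, Irf7 and Ifih1 did not part the 3 arrays from the others.

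**Figure D5:**
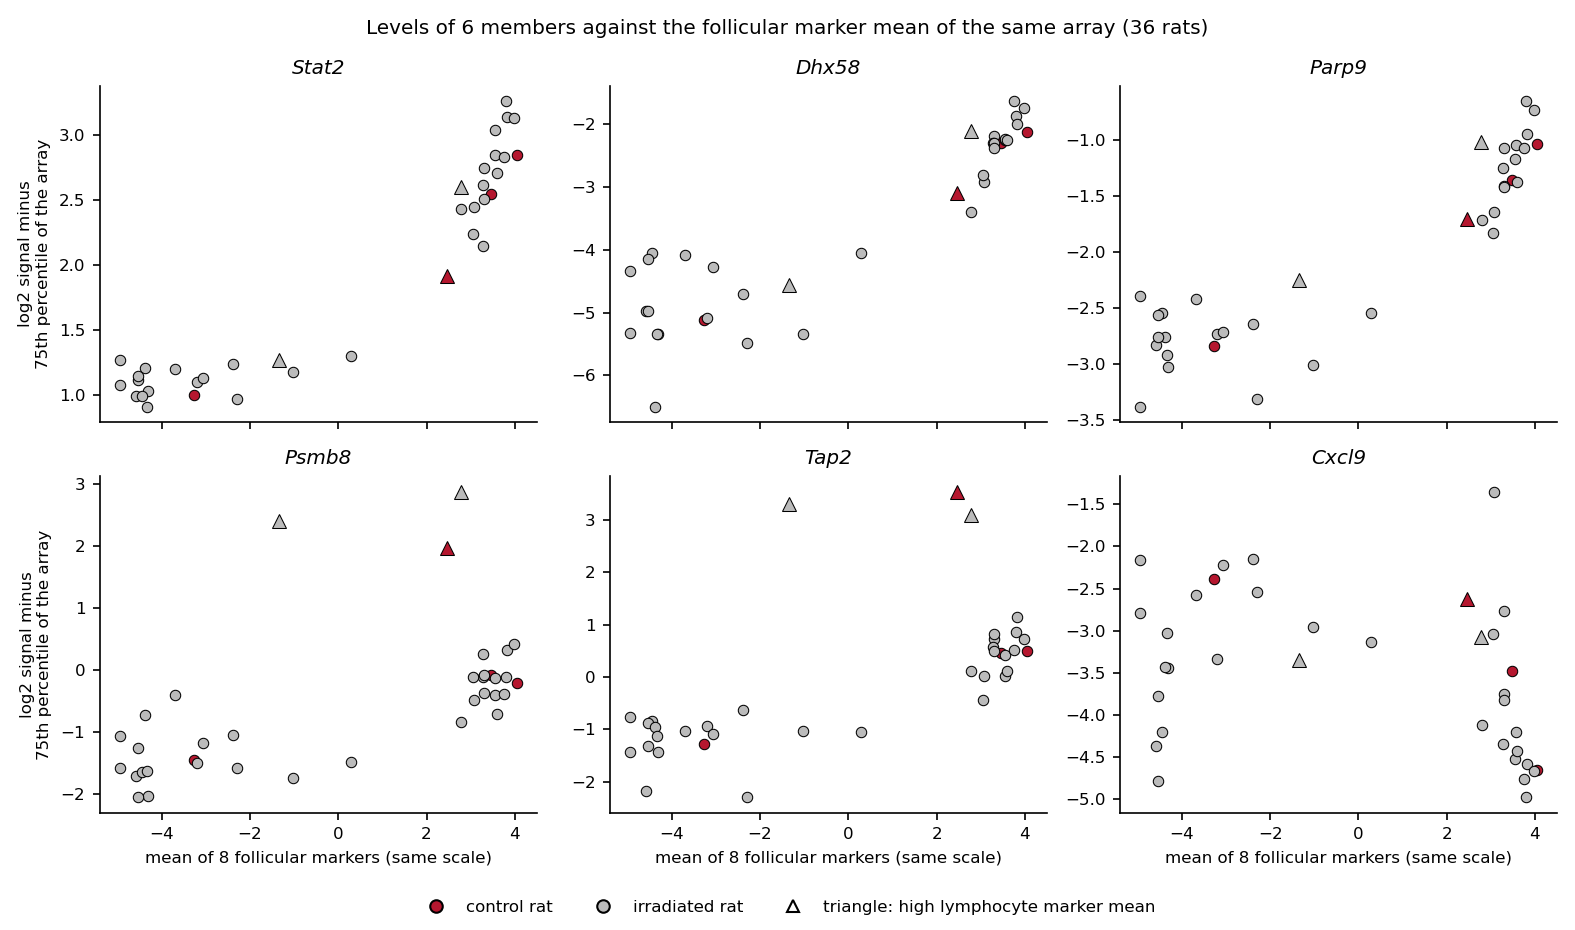
Log2 level of 6 genes (vertical axes) against the mean log2 level of 8 follicular markers on the same array (horizontal axis) for 36 rats, with controls in red, irradiated rats in grey and the 3 arrays with high lymphocyte markers as triangles. Stat2, Dhx58 and Parp9 form 2 separate clouds that each hold controls and irradiated rats, and Psmb8 and Tap2 are highest in the triangles. Cxcl9 spans -4.98 to -1.35 on the arrays with higher follicular means and -4.79 to -2.15 on the others.

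Between rats of the same group some members went together. Deviations from the group means were compared for 10 pairs of genes, within the arrays with higher and within those with lower follicular means, 20 relations over 16 rats each, with permutation within groups. Isg15 and Irf7 had Pearson's r of 0.80 on the higher and 0.90 on the lower arrays (Spearman's rho 0.84 and 0.84), with permutation p = 0.0339 and 0.00434 for r, 0.013 and 0.00694 for rho, and adjusted p = 0.113 and 0.0694 for r. Without the 2 rats farthest from the median Isg15 value, r was 0.72 and 0.85. Isg15 and Mx1 had r of 0.79 and 0.81, rho of 0.84 and 0.78, permutation p = 0.0234 and 0.0113 for r, and adjusted p = 0.0938 and 0.0752. After adjustment 0 of the 20 relations passed 0.05, by r or by rho. Without the 3 arrays with high lymphocyte markers, over 15 and 14 rats, 4 passed by r, Isg15 with Irf7 (0.91 and 0.97) and Isg15 with Mx1 (0.83 and 0.84), each with an adjusted permutation p of 0.0434. The smallest p-value the permutations could give was 0.000868.

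Psmb8 went with Ptprc, with r of 0.92 on both array sets (rho 0.78 and 0.61, permutation p = 0.00694 and 0.0694, adjusted p = 0.0694 and 0.198), and r was 0.60 and 0.51 without the 3 arrays with high lymphocyte markers. This relation rested in part on those arrays. Psmb8 and Tap1 had r of 0.77 and 0.59 (rho 0.76 and 0.33, permutation p = 0.0165 and 0.321, adjusted p = 0.0825 and 0.642), and r was 0.50 and 0.18 without the 3 arrays. For the remaining pairs r was 0.06 and 0.23 for Isg15 with Cxcl10, -0.17 and -0.02 for Cxcl9 with Cxcl10, 0.13 and 0.17 for Isg15 with Ptprc, 0.32 and 0.30 for Isg15 with Psmb8, -0.32 and 0.14 for Irf8 with Ptprc, and -0.11 and -0.04 for B2m with Psmb8. Without the 3 arrays r was higher for Isg15 with Psmb8 (0.48 and 0.84) and for B2m with Psmb8 (0.09 and 0.58), and Isg15 with Psmb8 passed on the lower arrays after quantile normalization and in the authors' matrix (r of 0.37, adjusted permutation p of 0.0486). In the values as first given, the permutation p-values of these pairs lay between 0.0842 and 0.991 for r and between 0.0278 and 0.975 for rho.

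As a description of likeness, r was taken over all 561 pairs of members without the 3 arrays, over 15 arrays with higher and 14 with lower follicular means. The median r was 0.45 and 0.36, and 12 pairs had r above 0.8 on both array sets. The most alike were Isg15 with Irf7 (0.91 and 0.97), Psmb8 with Psmb9 (0.93 and 0.86), Oas1a with Irf7 (0.87 and 0.87), Oasl2 with Irf7 (0.95 and 0.85), and Gbp2 with Gbp5 (0.83 and 0.84). The windows of Irf7, Oas1a and Oasl2 shown above share the ISRE letters, as did 19 of the 30 windows of members. Cxcl10 also holds them but had r of 0.25 and 0.25 with Irf7, and of Psmb8 and Psmb9 only the former does. Isg15 was not among the genes with a window. Whether the letters go with likeness was not tested. Members were ranked by the lower of their 2 values of r. By this rule Cxcl9 was most like Gbp2 (0.33 and 0.34) and Ifit1 most like Oasl (0.37 and 0.24). Other pairs had a higher r on 1 array set, as Cxcl9 with Oasl2 (-0.22 and 0.72) and Ifit1 with Irf8 (0.61 and 0.17). The points share array and group, and genes are not independent.

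The ligands, receptors and regulators of the pathway gave no more calls. Of 37 such genes 30 had a probe, and 0 were regulated in any group, where limma called 0% of all probes. At an unadjusted p-value under 0.05, 1 passed in 1 group, the type I interferon gene Ifnb1 at 340 kBq, in a comparison where 13.2% of all probes were higher at that limit. Ifnb1 was well above background on 1 of the 36 arrays, as was Ifng, the type II interferon gene, so no fold change is given. The immunoproteasome subunit Psmb10 had ratios between -0.44 and 0.04 in the 8 groups. The medians of the pathway genes lay between -0.25 and 0.03.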

How the data were processed

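Total RNA of 36 thyroids was hybridised to Agilent SurePrint G3 rat arrays, 1 array per rat, and groups were taken from the sample labels. The deposited scanner intensity of each spot had been corrected for background and spatial trend by the software, without normalization between arrays. The authors' deposited matrix holds quantile normalized intensity values on a linear scale, and the labels name Partek. It was used only as an alternative, with log2 taken here.

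Control and outlier spots were left out, log2 signals were centred on the 75th percentile of each array, spots of a probe were averaged, and the probe with the highest mean was used per gene. Genes were matched by accession. Probes with a missing value (99) were fitted on the remaining arrays. All 36 arrays entered 1 limma (3.58.1, R 4.3.3) model of group means, with Benjamini-Hochberg adjustment over 30367 probes. The term regulated asks for 1.5-fold or more and an adjusted p-value below 0.01. Named genes were also tested by exact two-sided permutation of 4 rats against 4. The fit was tested on simulated data. Each label names a separate animal.

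Members, pathway list and marker lists were chosen with earlier results of these data known. Values of 1 gene of the pathway list are not reported here. Values are printed for 1 or more genes of each role, the members with the smallest p-values in each comparison and those with the largest within-group SD. Other members (Stat2, Parp9, Parp14, Rsad2, Psmb9, Gbp2, Gbp5, Oasl2) were named after their values were seen. Relations were planned over all arrays and were run within the arrays with higher and lower follicular means, because the rats fall into separate clusters. Precision is limited by the number of arrays. Plots and joins used pandas 2.3.3, numpy 2.4.6 and matplotlib 3.10.9 (Python 3.11.15), and the package data.table (1.17.8) read the files.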

Additional observations from a re-analysis of the deposited data

Results flagged for a closer look

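In 189 sets of 4 rats (21 genes in 9 groups), 1 rat stood apart from the other 3 by Dixon's criterion in 14 sets, where chance gives about 1 in 20. Irf7 stood apart in 4 groups, low in 88 kBq rat 1 (-1.17 against -0.09 to 0.00) and 260 kBq rat 3 (-0.97 against -0.01 to 0.13), and high in 170 kBq rat 2 (-0.02 against -0.69 to -0.60) and 340 kBq rat 2 (1.21 against -0.31 to -0.09). The peptide transporter gene Tap1 was high in 9 kBq rat 2 (-0.79 against -3.41 to -3.22), an array with high lymphocyte markers, and low in 4700 kBq rat 3 (-3.66 against -1.87 to -1.56). Its partner Tap2 was high in 340 kBq rat 4 (0.01 against -1.12 to -0.96), the only rat of that group with a higher follicular mean. B2m was low in 1300 kBq rat 1 (2.66 against 3.92 to 4.09).

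The sensor Ifih1 was high in 170 kBq rat 4 (-3.35 against -4.29 to -4.19) and low in 1300 kBq rat 1 (-4.39 against -4.05 to -4.01). Without 170 kBq rat 4 the ratio of Ifih1 at 170 kBq was 0.41 in place of 0.64, with an unadjusted p-value of 0.155 in limma. Ifit2 was high in 1300 kBq rat 2 (-1.68 against -2.84 to -2.68) and 4700 kBq rat 3 (-2.32 against -2.93 to -2.83). Ifit1 was high in 760 kBq rat 1 (-8.08 against -8.65 to -8.60), where it was not well above background. Cxcl11 was high in 9 kBq rat 2 (-4.33 against -8.65 to -7.92), again an array with high lymphocyte markers. The cause of these single values was not tested.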

How the results depend on the processing

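Under 15 other settings, and with each of 36 rats left out in turn, 560 counts of members past a limit were recomputed. Of these, 554 stayed within 1.5 times the count of the report (0 for the comparisons) and 6 did not. The fit of the report called 0% of all probes in the group comparisons and 0.0132% in the trend. Quantile normalization called 18 ratios over all probes and comparisons, and the slide block 0. Counts that stay at 0 therefore say little about these genes. With estimated array weights (0.26 for 340 kBq rat 4 to 4.55 for 9 kBq rat 4), 8 members were called at 9 kBq (Isg15, Mx1, Oas1a, Irf1, Usp18, Parp14, Dtx3l and B2m, adjusted p-values 0.00407 to 0.00823 in limma, all lower) and 3 in the trend (Irf7, Isg15 and Oas1a, slopes 0.15 to 0.221). That fit called 7.75% of all probes at 9 kBq and 2.32% in the trend. On only the 18 arrays with higher follicular means, 1 member was called at 340 kBq, Cxcl11 with a ratio of 3.18 from 1 rat, where 12.2% of all probes were called. Of the 20 relations, 5 passed after quantile normalization, 5 in the authors' matrix and 4 without the 3 arrays with high lymphocyte markers. Leaving out single rats gave 0 called members throughout, with a smallest adjusted p-value of 0.0374, for the trend without 9 kBq rat 1. The fits without the 3 arrays, on the 18 arrays and with marker means as covariates were chosen after seeing the data. None of 21 ratios and slopes recomputed under these settings changed sign. They were picked for the smallest p-values in limma in each comparison and in the trend, which favours a stable sign. Ratios outside this pick did change sign. Without control rat 2, Tap2 went from -0.90 to 0.01 at 260 kBq and from -0.74 to 0.17 at 4700 kBq. The cause of these differences was not tested.

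The members at an unadjusted p-value under 0.05 numbered 0 to 25 at 9 kBq, 0 to 15 at 340 and at 760 kBq, 0 to 23 in the F-test and 1 to 25 in the trend over the settings, with the highest numbers under array weights. Without 9 kBq rat 2 they numbered 8 at 9 kBq and 9 in the trend, and without control rat 3 they numbered 3 at 340 kBq. Without 9 kBq rat 3 or 4, or without 4700 kBq rat 2, the trend held 1. The share of all probes at that limit was not taken under these settings. These numbers therefore have no background beside them and are not read as a result about these genes. With the replicate block (animal number), 0 members were called in any comparison, the smallest adjusted p-value was 0.219 and the slope of Irf7 was 0.123. Rats of the same number did not deviate together (r between -0.71 and 0.76 over 144 pairs, median -0.03), so the number was not taken as a pairing. The smallest adjusted p-value of a member was between 0.106 (normexp background correction) and 0.269 (slide as a block) over the settings of normalization, background, filter and slide, against 0.183 in the report. A relation fit from means of group and slide was not run, since too few rats shared both. Signal over background limits Ifit1, Cxcl11 and Oasl, which were below it on most or many arrays.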
